A study of Homo sapiens with 9 samples.

Results

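This report sets embryoid bodies grown for 21 days without ethanol against the undifferentiated cells they came from, in NCCIT, a human embryonal carcinoma line that resembles pluripotent cells. The comparison uses 3 of the 9 arrays of the series: 1 array of undifferentiated NCCIT cells, 1 of untreated embryoid bodies at day 21, and 1 of day 21 embryoid bodies given an additive abbreviated as FA, with meaning and dose not given in the sources used here. Embryoid bodies are floating aggregates that start to differentiate when cells cannot attach, and they were formed in bacterial dishes. The protocol covers the first 7 days, and later culture is not described in the sources used here. The other 6 arrays, from embryoid bodies at day 7 without ethanol (untreated and FA), at day 7 with 50 mM ethanol (with and without FA) and at day 21 with ethanol (with and without FA), served to estimate the spread between arrays. They also counted in the choice of which genes to test. No condition was replicated and separate cultures are not recorded, so the p-values reflect array to array spread, some of which may be technical. All cells were of 1 line, and only 1 undifferentiated array was analysed, so each difference below rests on it.

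Embryonal carcinoma cells share with embryonic stem cells a network of transcription factors, among them OCT4 (the product of POU5F1), SOX2 and NANOG, that holds them in an undifferentiated state and is shut down as lineages form. Retinoic acid, made from vitamin A, binds nuclear receptors that act at paired half-sites in DNA. It is known to switch on HOX genes, which lie in 4 clusters and give cells a position along the head to tail axis, together with the MEIS and PBX cofactors that bind DNA beside HOX proteins. Levels below are log2 values, so a difference of 1 is 2-fold, and values of different genes on this array are not compared with each other because probes differ in brightness.

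Markers of embryonal carcinoma were detected on the undifferentiated array, but most were also detected at day 21, so their detection does not tell these samples apart. Of 17 markers, 15 had a transcript cluster (the array's set of probes for 1 transcript) of their own. All 15 exceeded the median of all values (7.71) on the undifferentiated array, all 15 did on the day 21 untreated array and 14 on the day 21 FA array. POU5F1 and NANOG had no cluster with a single gene name and were not analysed here. The day 21 arrays correlated with each other at r = 0.996 over all clusters, and with the undifferentiated array at r = 0.974 (untreated) and r = 0.977 (FA), each without a p because clusters are not independent samples.

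At day 21, 480 genes were at least 2-fold higher and 245 at least 2-fold lower than in undifferentiated cells on both arrays, and the largest increases were bigger than the largest decreases. These are 3.92% and 2.0% of 12254 genes tested, 5.92% together. At 8-fold the numbers were 46 higher and 4 lower, the 4 being RHD, HHLA1 and the microRNA genes MIR302A and MIR302B (the last pair chosen after their values were seen). Of all 12254, 10652 (86.9%) lay on the same side of the undifferentiated array on both day 21 arrays, 4485 above it and 6167 below it. Both differences share the undifferentiated array, so any error in that array counts toward this number. In limma, fitted over the 9 arrays with Benjamini-Hochberg adjustment at 0.05, 42.3% of genes passed. Of all genes tested, 2235 (18.2%) rose and 2951 (24.1%) fell at day 21, in the mean of both day 21 arrays minus the undifferentiated array, and these percentages are the background for every count of calls below. All 5186 called genes had the same sign on both day 21 arrays. A fit to the 3 arrays of the comparison alone, with 1 residual degree of freedom, called 2995. The median difference over the genes tested was -0.06, with a median standard error of 0.10. Of the 480 genes at least 2-fold higher, 246 (51.2%) had an undifferentiated level at or below 7.71, while 65 of the 245 lower genes (26.5%) were that dim on both day 21 arrays. In bulk RNA, fewer cells of a type and less RNA per cell cannot be told apart.

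**Figure D1:**
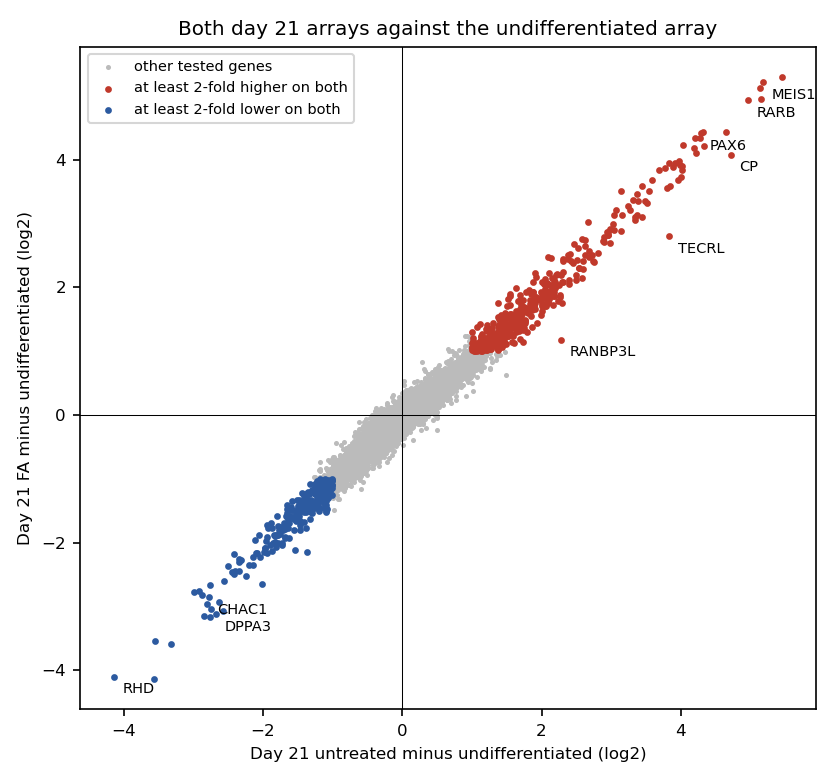
Each point is 1 of 12254 tested genes, with the log2 difference from the undifferentiated array on the day 21 untreated array (horizontal) and on the day 21 FA array (vertical). The 480 red and 245 blue genes are at least 2-fold apart on both arrays, and RANBP3L and TECRL lie off the diagonal because their levels differed between the day 21 arrays.

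Among genes kept here, the 12 that rose most included factors of body axis and neural patterning, a retinoic acid receptor and a WNT antagonist. The naming rule left aside small and noncoding RNAs and the other kinds of gene given under processing. MEIS1, a homeobox cofactor of HOX proteins, was at 6.09 in undifferentiated cells and at 11.27 and 11.3 on the day 21 untreated and FA arrays, a difference of 5.19 ± 0.12 (standard error of the fit, as for every ± below; limma adjusted p = 3.5e-07). HOXA2, which patterns the hindbrain and pharyngeal arches, went from 6.76 to 11.9 and 11.87 (5.13 ± 0.14). FRZB, a secreted WNT antagonist, went from 7.02 to 12.17 and 11.96 (5.05 ± 0.28). For these genes the gap between undifferentiated and day 21 levels was far wider than that between the day 21 arrays. The retinoic acid receptor gene RARB rose from 6.46 to 11.42 and 11.39, a difference of 4.95 ± 0.11. PAX6, a regulator of neural and eye development, rose from 6.37 to 10.66 and 10.78 (4.35 ± 0.17). SKAP2, an adaptor protein gene that neighbours the HOXA cluster, rose by 4.54 ± 0.22. CP, coding for the copper carrier ceruloplasmin, rose by 4.4 ± 0.29, with the FA array at 10.04 below the untreated array at 10.68. The other genes among the 12 largest increases were LAMP5 (4.37), a membrane protein gene of neurons, HOXB1 (4.31), HOXB3 (4.27), MEIS2 (4.27) and HOXB2 (4.18). Limma's adjusted p for the 12 lay between 2.33e-07 and 2.86e-05, and their 2 day 21 arrays differed from each other by 0.0148 to 0.645.

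With the same kinds of gene left aside, the genes that fell most included pluripotency regulators, feedback genes of FGF signalling and stress genes. RHD, the rhesus D antigen gene, was at 11.75 in undifferentiated cells and at 7.61 and 7.65 at day 21, a difference of -4.12 ± 0.29 (limma adjusted p = 3.77e-05), which is uncertain because probes may not separate RHD from its near-identical neighbour RHCE. HHLA1 went from 11.23 to 7.69 and 7.7 (-3.54 ± 0.095). PMAIP1, a p53-regulated cell death gene, went from 10.93 to 8.09 and 7.77 (-3.0 ± 0.14). Each of these 3 genes was lower on both day 21 arrays by over 2 log2 units. PRDM14, a regulator of pluripotency and of germ cell fate, fell from 11.67 to 8.75 and 8.91. DPPA3, a maternal and germline factor, fell from 11.13 to 8.46 and 8.01. SPRY4, an inhibitor of receptor tyrosine kinase signalling, fell from 10.33 to 7.58 and 7.3. Their differences were -2.84 ± 0.13, -2.89 ± 0.22 and -2.89 ± 0.18. The remaining named decreases were the receptor gene MAS1 (-2.96), the melatonin receptor related gene GPR50 (-2.89), the ETS factor gene ETV4 (-2.88), TRIML2 (-2.84), the mitochondrial folate enzyme gene ALDH1L2 (-2.82) and CHAC1 (-2.81), which codes for an enzyme that degrades glutathione. Limma's adjusted p for these 12 lay between 4.8e-07 and 0.0001.

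**Figure D2:**
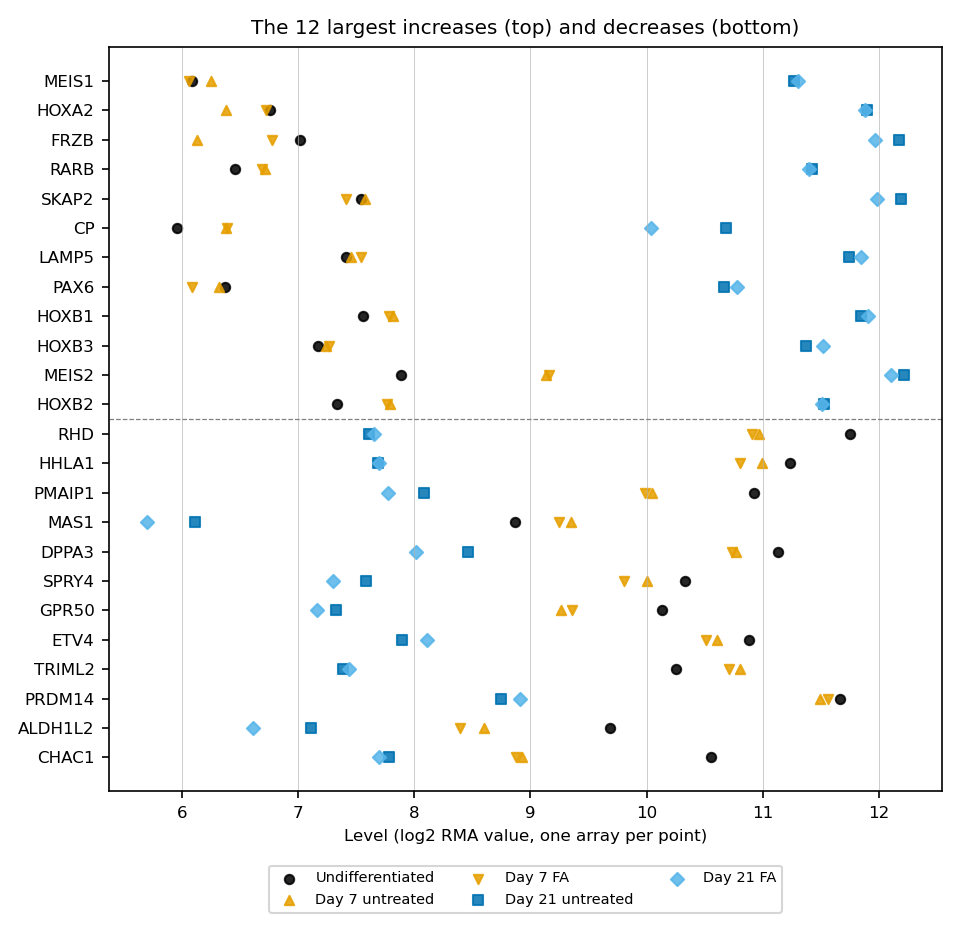
Levels (log2 RMA value) of the 12 largest increases and the 12 largest decreases among genes kept by the naming rule. Increases lie above the dashed line and decreases below it, with 1 point per array. For the increases the day 21 points lie to the right of the undifferentiated point and for the decreases to its left, and most day 7 points lie close to the undifferentiated one.

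RARB, CRABP2, DHRS3 and the catabolic genes CYP26A1 and CYP26B1 of the retinoic acid pathway rose most, while other receptors, carriers and enzymes of the pathway rose less, fell or did not pass. Of 15 tested genes of the list, 10 rose, 3 fell and 2 did not pass. Their median difference was 0.51 against -0.06 over all genes tested, and 0.31 over all 20 measured genes of the list. Of the 15, 3 (RARB, CYP26B1 and ALDH1A1) had an undifferentiated level at or below 7.71 and a higher day 21 level. These entered the test through brighter embryoid body arrays, so the count is a description. Among receptors, RARB rose as given above, the partner receptor genes RXRA (0.51 ± 0.094) and RXRB (0.35 ± 0.092) rose far less, and RARG (0.038) and RXRG (-0.85) were below the filter. The carrier gene RBP4 was below it too. The genes for enzymes that break retinoic acid down rose, CYP26A1 from 8.69 to 12.61 and 12.64 (3.93 ± 0.12) and CYP26B1 from 6.82 to 10.5 and 10.65 (3.76 ± 0.11), whereas CYP26C1 had a difference of 0.0025. DHRS3, which reduces retinaldehyde back to retinol, rose from 7.95 to 11.78 and 11.9 (3.89 ± 0.11). The carrier gene CRABP2 rose by 3.08 ± 0.15, and NRIP1, a corepressor of nuclear receptors, by 2.23 ± 0.074. Of the enzymes that make retinoic acid, ALDH1A1 rose (1.81 ± 0.13) and ALDH1A3 fell (-1.06 ± 0.094), and ALDH1A2 was below the filter. LRAT, which stores retinol as esters, fell by 1.58 ± 0.2. Of the 20 genes of the list with a cluster of their own, 7 were at least 2-fold higher on both day 21 arrays.

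The promoters of RARB and CYP26A1 are shown because both genes rose and both hold a DR5 element, the paired half-site to which retinoic acid receptors bind. DR5 was searched as a pair of half-sites in the same orientation and 5 bases apart, each being AGGTCA, its single-base variants AGTTCA or else GGGTCA, or the variant with both changes, GGTTCA, on both strands of the RefSeq promoters of GRCh38.p14 (250 bases before to 50 after each start). The capitals mark the element and the lines run in the direction of the gene. The RARB stretch lies at chr3:25428180-25428256 on the plus strand, and its element begins 53 bases before the start. The CYP26A1 stretch lies at chr10:93073773-93073849 on the plus strand, and its element begins 90 bases before the start and reads on the opposite strand.
RARB: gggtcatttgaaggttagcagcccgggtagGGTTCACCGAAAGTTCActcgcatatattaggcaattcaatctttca
CYP26A1: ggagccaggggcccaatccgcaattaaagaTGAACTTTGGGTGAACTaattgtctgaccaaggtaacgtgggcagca
DR5 was in 2 of 40 promoters (5.0%) of 20 genes of the retinoic acid list and in 0 of 27 promoters of 20 HOX genes. It was in 31 of all 35116 promoters (0.0883%). Here and in the searches below, list members without a promoter in the set searched are not covered. A match describes these letters and is not a site of binding, and no match says nothing about elements outside this window.

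HOXA2, HOXB1 to HOXB9, HOXC5, HOXC8 and 5 HOXD genes were higher at day 21, and the other measured HOX genes were below the filter or, for HOXD13, did not pass. Of 39 HOX genes, 27 had a cluster of their own, 15 of the 27 were at least 2-fold higher on both day 21 arrays, and 9 were below the filter, with differences from -0.32 to 0.38. Of the 18 tested, 17 rose and HOXD13 (0.073) did not pass, but 14 of the 18 had an undifferentiated level at or below 7.71 and a higher day 21 level, so these entered the test through brighter embryoid body arrays and the count over tested genes is a description. In the HOXB cluster, HOXB1 was at 7.56 in undifferentiated cells and at 11.84 and 11.9 at day 21. HOXB3 was at 7.17, 11.37 and 11.51 in the same order. HOXB9, at the other end of the run of HOXB genes that rose, was at 7.41, 11.29 and 11.28. The genes between HOXB3 and HOXB9 rose less, HOXB4 by 2.06 ± 0.17, HOXB5 by 2.05 ± 0.17, HOXB6 by 1.98 ± 0.17, HOXB7 by 1.06 ± 0.075 and HOXB8 by 2.5 ± 0.21. HOXC5 rose by 4.13 ± 0.19 and HOXC8 by 0.83 ± 0.2. In the HOXD cluster, HOXD1 (2.04), HOXD3 (2.36), HOXD4 (2.64) and HOXD8 (2.47) rose, HOXD9 rose by 0.43, and HOXD10, HOXD11 and HOXD12 stayed below the filter, as did HOXB13 and HOXC9 to HOXC13. Most HOXA genes had no cluster with a single gene name and were not analysed here.

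Several cofactors of HOX proteins and other axial factors rose. Of 14 genes with a cluster, 13 were tested and 9 rose, 0 fell and 4 did not pass, but 5 of the 13 had an undifferentiated level at or below 7.71 and a higher day 21 level, so the count is a description. The gene below the filter, CDX4, had a difference of -0.93, and the median over all 14 was 0.74. Beside MEIS1 and MEIS2, the orphan receptor gene NR2F1, which acts in neural and neural crest patterning, rose from 7.52 to 11.29 and 11.39 (3.82 ± 0.12). The zinc finger homeobox genes TSHZ2 (3.01 ± 0.14), TSHZ3 (2.8 ± 0.09) and TSHZ1 (2.57 ± 0.11) rose as well. PBX3 (0.38), PKNOX1 (0.37) and PKNOX2 (1.1) rose less. CDX1 (-0.22) and CDX2 (-0.11), which mark posterior gut and tail bud, did not pass.

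**Figure D3:**
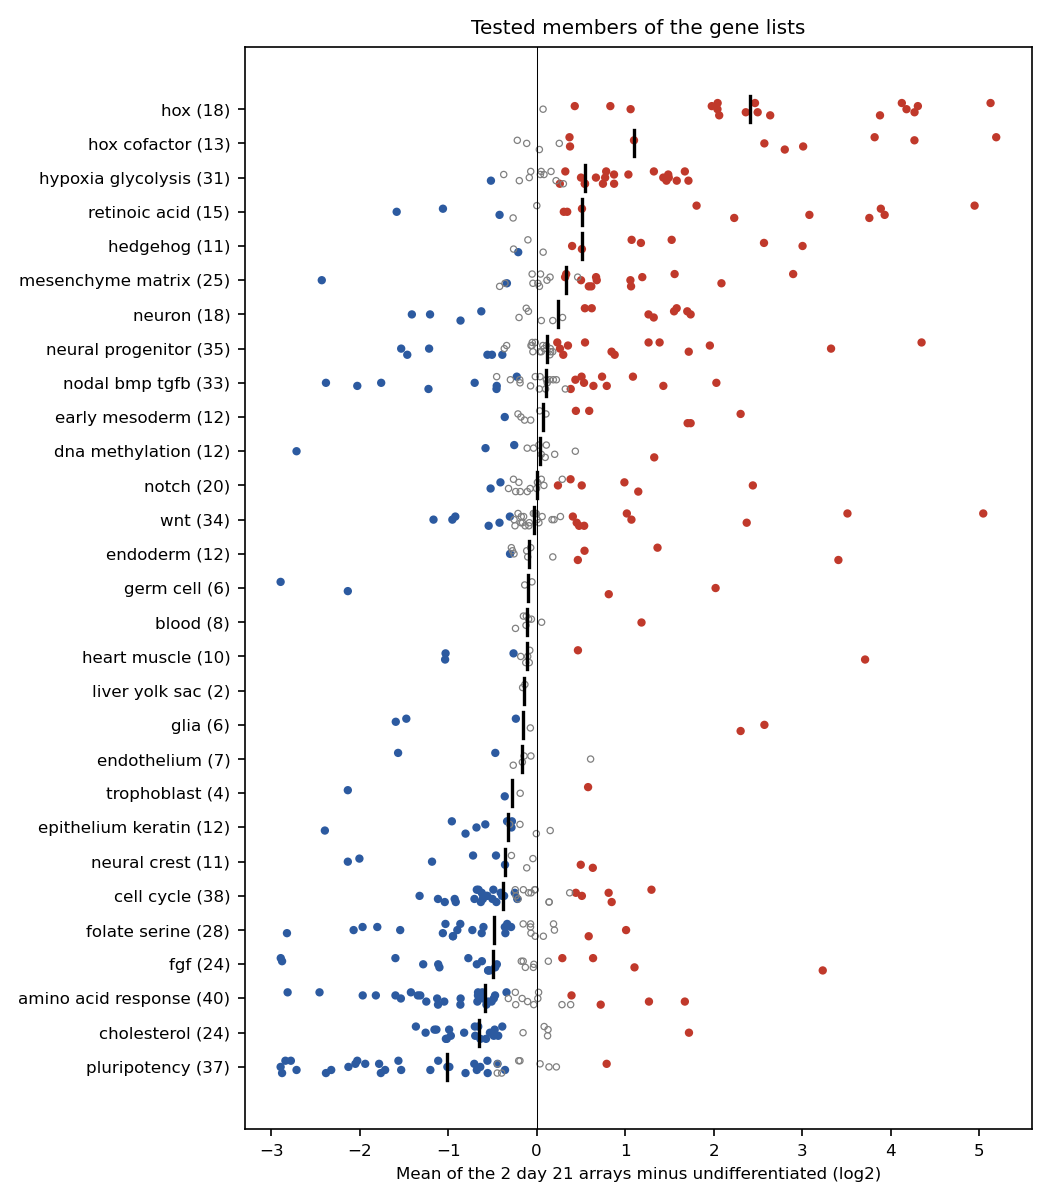
Each point is a tested member of 1 of 29 gene lists, placed at the mean of both day 21 arrays minus the undifferentiated array (log2), with the number tested in brackets. Red and blue points rose or fell in limma, open points did not pass, and black bars are medians, from 2.42 for HOX to -1.01 for pluripotency genes.

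Of the microRNA genes, 6 chosen after their values were seen are described here, with no count over all microRNA genes. The array measures the precursor region and any longer transcript across it, not the mature microRNA. MIR302A and MIR302B, of the cluster that marks pluripotent cells, went from 9.29 to 5.97 and 5.7 and from 9.93 to 6.37 and 5.79. Both fell, with differences of -3.46 ± 0.5 (limma adjusted p = 0.00122) and -3.85 ± 0.34 (limma adjusted p = 0.000109). MIR10A, which lies within the HOXB cluster, went from 3.77 to 9.22 and 9.06, the largest increase of any gene tested (5.37 ± 0.11, limma adjusted p = 2.33e-07). MIR10B, within the HOXD cluster, was at 3.58, 6.43 and 6.45, higher on both day 21 arrays but below the filter and so not tested. MIR99A rose by 1.5 ± 0.18, its host transcript MIR99AHG by 3.93 ± 0.13, and MIRLET7I, of the let-7 family that marks differentiated cells, by 1.09 ± 0.11. The mature sequences (RefSeq, GRCh38.p14) of the genes with the largest changes are shown with the seed, bases 2 to 8, in capitals. Those of the MIR302 pair share 1 seed and that of MIR10A has another.
hsa-miR-302a-3p: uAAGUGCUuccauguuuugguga
hsa-miR-302b-3p: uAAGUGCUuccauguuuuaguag
hsa-miR-10a-5p: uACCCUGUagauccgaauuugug
They lie at chr4:112648186-112648208, chr4:112648489-112648511 and chr17:48579904-48579926, all on the minus strand.

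**Figure D4:**
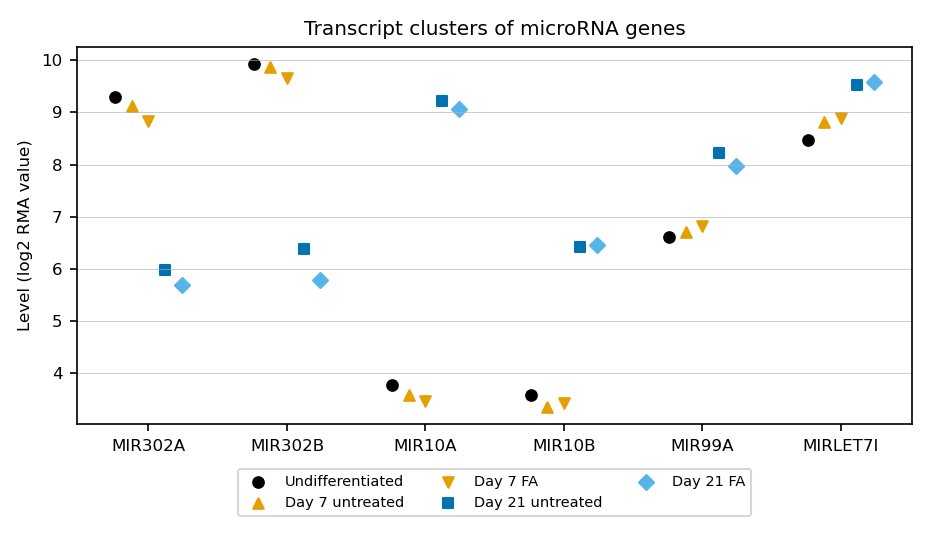
Levels (log2 RMA value) of the transcript clusters of 6 microRNA genes, with 1 point per array. MIR302A and MIR302B are lower at day 21 than on the undifferentiated and day 7 arrays, and the other 4 are higher.

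Pluripotency genes fell by unequal amounts, SOX2 and LIN28A by less than 2-fold. Of 37 tested genes 28 fell, 1 rose and 8 did not pass, with a median difference of -1.01, and 17 were at least 2-fold lower on both day 21 arrays. DNMT3B, the de novo DNA methyltransferase gene of pluripotent cells, went from 12.23 to 9.47 and 9.55 (-2.71 ± 0.073). L1TD1, an RNA-binding protein gene, went from 10.51 to 7.88 and 7.58 (-2.78 ± 0.14). CRIPTO, the NODAL co-receptor gene, went from 12.22 to 9.98 and 9.7 (-2.38 ± 0.16). In all 3 the day 21 arrays lay over 2 log2 units below the undifferentiated array. The ligand gene GDF3 (-2.03), the surface sialomucin gene PODXL (-2.13), the neuropeptide gene GAL (-2.32), ZFP42 (-1.78), KLF4 (-1.76), DPPA4 (-1.71) and OTX2 (-1.53) fell too. The core factor gene SOX2 fell by 0.56 ± 0.089 and remained at 11.67 and 11.55, from 12.17. The RNA-binding protein gene LIN28A fell by 0.7 ± 0.073 and remained at 11.92 and 11.97, from 12.65. SALL4 fell by 0.55, while LIN28B (0.14), EPCAM (-0.19) and the NODAL inhibitor genes LEFTY1 (0.039) and LEFTY2 (0.22) did not pass. TBX3 was the gene of the list that rose (0.79 ± 0.13). POU5F1B, an expressed copy of POU5F1, went from 11.28 to 8.87 and 8.8, which is uncertain because near-identical copies can share probes. On the day 21 arrays with ethanol DPPA3 was at 9.97 and 9.5. The octamer ATTTGCAT, searched on both strands, was in 0 of 37 promoters of 26 genes of the list and in 1.77% of all promoters.

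Neural genes moved in both directions. Of 35 tested neural progenitor genes 13 rose, 6 fell and 16 did not pass, with a median of 0.11, and 6 of the 35 had an undifferentiated level at or below 7.71 and a higher day 21 level. DBX1, which marks interneuron progenitors, went from 7.73 to 10.87 and 11.24 (3.33 ± 0.25). SOX5 (1.96 ± 0.11), RFX4 (1.72 ± 0.13), ZIC1 (1.39 ± 0.071) and IRX3 (1.27 ± 0.14), regulators of neural tube cells, rose, as did the forebrain factor genes FEZF2 (0.88 ± 0.11) and LHX2 (0.23 ± 0.079, a call lost in 11 of 16 alternative settings). The forebrain factor gene OTX2, the dorsal hindbrain and spinal cord factor gene OLIG3 (-0.5 ± 0.1), the glial fatty acid carrier gene FABP7 (-1.46 ± 0.19) and PROM1 (-1.21 ± 0.094) fell. The ventral factor gene NKX6-1 (-0.37) did not pass. NES (0.15), SOX1 (0.16) and HES5 (0.053), general markers of neural stem cells, did not pass. Of 18 tested neuron genes 8 rose, 4 fell and 6 did not pass. Of the 18, 4 had an undifferentiated level at or below 7.71 and a higher day 21 level. These entered the test through brighter embryoid body arrays, so the count is a description, and the median over all 34 measured was -0.02. NCAM1, a neural adhesion molecule gene, rose from 7.93 to 9.68 and 9.58, and the migration gene DCX from 8.37 to 9.97 and 9.94. LHX1 (1.74), ELAVL2 (1.55), MAP2 (1.32) and SNAP25 (1.26) rose, whereas L1CAM (-1.41), INA (-1.2) and STMN2 (-0.86) fell. Of the 34 neuron genes with a cluster, 16 were below the filter, among them the transmitter genes GAD1, GAD2, SLC17A6 and CHAT.

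Markers of other lineages rose in part of each list or not at all. In neural crest genes 2 of 11 tested rose and 6 fell. TFAP2A, which is also an early ectoderm factor, fell from 11.23 to 9.36 and 9.1, TFAP2C fell (-2.13 ± 0.12), and the migration factor gene SNAI2 (-0.28) did not pass. In early mesoderm genes 5 of 12 rose and 1 fell, where 5 of the 12 had an undifferentiated level at or below 7.71 and a higher day 21 level, with the growth factor receptor gene PDGFRA at 2.31 ± 0.15 and MEOX1 at 1.71 ± 0.15, while TBXT, EOMES and TBX6 were below the filter. In endoderm genes 4 of 12 rose and 1 fell, with PROX1, which acts in liver, lymphatic and neural cells, from 6.44 to 9.8 and 9.9, while SOX17 (-0.29) did not pass and FOXA2 was below the filter. In heart and muscle genes 2 of 10 rose and 3 fell, with the regulator gene MEF2C from 7.29 to 11.13 and 10.87, while the contractile genes MYH6, MYH7, TNNC1 and ACTC1 were below the filter. These lists gave 2 to 5 increases each, several in genes that other tissues also use. Over all genes tested 18.2% rose and 24.1% fell, and counts of increases such as 2 of 11 or 2 of 10 lie near the first share. In endothelium 0 of 7 rose and 2 fell, with FLT1 at -1.57 ± 0.14, and PECAM1, CDH5 and KDR were below the filter. In blood 1 of 8 rose, the embryonic globin gene HBE1 (1.18 ± 0.091), and PTPRC was below the filter. In trophoblast 1 of 4 rose and 2 fell, and in glia 2 of 6 rose, led by the glutamate transporter gene SLC1A2 (2.57 ± 0.17), and 3 fell. In germ cell genes 2 of 6 rose and 2 fell, with the repressor gene PRDM1 at 2.02 ± 0.13 among the increases and DPPA3 among the decreases. Some genes are in several lists and count in each. TFAP2C, which fell, is in the neural crest, trophoblast and germ cell lists. PDGFRA, which rose, is in those of early mesoderm and glia, and LHX1, which also rose, in those of neurons and early mesoderm. An undifferentiated level at or below 7.71 with a higher day 21 level was also found in 2 tested genes each of heart and muscle, glia and germ cell. It was found in 1 tested gene each of neural crest, endoderm, endothelium, blood and trophoblast. Such genes entered the test through brighter embryoid body arrays, so the counts of increases in these lists are a description. Of 16 liver and yolk sac genes with a cluster, 14, including AFP and ALB, were below the filter, and APOA1 (-0.13) and APOC3 (-0.16) did not pass. The mean level of that list was 6.24 in undifferentiated cells and 6.13 and 6.18 at day 21. Of 12 epithelial genes 8 fell and 0 rose, with the tight junction gene CLDN6 at -2.39 ± 0.11 and E-cadherin (CDH1) at -0.8 ± 0.17. The call of CDH1 was lost in a fit with additive terms for ethanol, FA and day (limma adjusted p = 0.333), and the number of epithelial genes that fell ranged from 4 to 9 over the alternatives. Of 25 mesenchyme and matrix genes 13 rose and 2 fell, where 6 of the 25 had an undifferentiated level at or below 7.71 and a higher day 21 level. Fibrillin 2 (FBN2) rose from 6.94 to 9.87 and 9.8, as did COL5A2 (2.09 ± 0.12) and ZEB1, a repressor of E-cadherin (1.56 ± 0.087). The surface protein gene THY1 fell (-2.43 ± 0.18), while COL1A1 (-0.05) and VIM (0.032) did not pass.

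Genes of the amino acid response and of serine and folate metabolism fell. The response is driven by the transcription factor ATF4 when amino acids are short or proteins misfold, and it switches on amino acid transporters, synthetases and serine synthesis. Of 40 tested genes of the amino acid and ER stress response 26 fell, 4 rose and 10 did not pass, with a median of -0.59. The cystine transporter gene SLC7A11 went from 11.58 to 9.13 and 9.12 (-2.45 ± 0.12). Asparagine synthetase (ASNS) went from 10.59 to 8.63 and 8.62 (-1.96 ± 0.097). PCK2, a mitochondrial enzyme gene, went from 9.47 to 7.61 and 7.71 (-1.82 ± 0.095). The day 21 arrays differed little from each other in these 3 genes. The neutral amino acid transporter genes SLC7A5 (-1.6) and SLC1A5 (-1.42), SESN2 (-1.53) and the tRNA synthetase genes AARS1 (-1.34), CARS1 (-1.31) and MARS1 (-1.25) fell, and ATF4 itself fell by 0.61 ± 0.073. Chaperone genes of the ER did not pass, with HSPA5 at -0.24 and HSP90B1 at 0.023, nor did DDIT3 (-0.1). The members that rose were VEGFA, which is also in the hypoxia list, VLDLR (1.27), STC2 (0.72) and DNAJB9 (0.39), the last a call that 11 of 16 alternative settings did not keep. Of 28 tested folate and serine genes 18 fell, 2 rose and 8 did not pass, with a median of -0.48. Of the 28, 1 had an undifferentiated level at or below 7.71 and a higher day 21 level. CTH, of transsulfuration, went from 10.85 to 8.86 and 8.71, the serine synthesis gene PSAT1 from 11.29 to 9.39 and 9.25, and the mitochondrial folate enzyme gene MTHFD2 from 12.2 to 10.52 and 10.29. PHGDH, the first enzyme of serine synthesis, was at -0.15 and did not pass, and the folate hydrolase gene GGH rose (1.01 ± 0.13).

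CHAC1 and ASNS are shown because both fell and both promoters hold TGATGNAAN, the composite element of C/EBP and ATF proteins. It was searched on both strands, and the capitals mark it. The CHAC1 stretch is chr15:40953231-40953299 on the plus strand, with the element 210 bases before the start on the opposite strand. The ASNS stretch is chr7:97872438-97872506 on the minus strand, with the element 68 bases before the start.
CHAC1: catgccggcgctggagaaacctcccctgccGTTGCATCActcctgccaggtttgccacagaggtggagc
ASNS: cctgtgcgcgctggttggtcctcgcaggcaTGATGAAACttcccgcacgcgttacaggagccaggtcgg
The element was in 14 of 56 promoters of the amino acid response list (25.0%), in 3 of 45 promoters of the folate and serine list (6.67%) and in 3.61% of all promoters. The 14 promoters belong to 14 genes, of which 12 fell and 0 rose. Of the whole list 26 of 40 tested genes fell, and of all genes tested 24.1% fell. Whether genes with the element fell more than the rest of the list was not tested.

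Hypoxia and glycolysis genes rose, and most genes of the cholesterol and cell cycle lists fell. Of 31 tested hypoxia and glycolysis genes 20 rose, 1 fell and 10 did not pass, with a median of 0.55. The collagen hydroxylase gene P4HA1 went from 9.84 to 11.56 and 11.55 (1.72 ± 0.24), and the angiogenic factor gene VEGFA from 9.2 to 10.9 and 10.86 (1.68 ± 0.12). The histone demethylase gene KDM3A (1.58 ± 0.25), PFKFB4 (1.49 ± 0.23), PDK1 (1.47 ± 0.16) and the glucose transporter gene SLC2A1 (1.33 ± 0.087) rose, while the glycolytic enzyme genes GAPDH (-0.083), ALDOA (0.052) and ENO1 (0.084) did not pass. The core ACGTG of the hypoxia response element was in 41.2% of the list's 51 promoters and in 21.4% of all promoters. Of the 16 tested genes of the list with it 11 rose, against 20 of 31 in the whole list. Of 24 tested cholesterol and lipid synthesis genes 19 fell, 1 rose and 4 did not pass, with a median of -0.65. HMGCS1, of the first steps of the pathway, went from 10.99 to 9.7 and 9.55, DHCR7, of the last, from 11.26 to 10.1 and 10.11, and ACAT2 fell by 1.25. The gene that rose was INSIG2 (1.72 ± 0.32), whose product holds back the pathway's regulator. The sterol response element TCACCCCAC was in 1 of 30 promoters of 22 genes of the list, that of SREBF2, and in 0.43% of all promoters. Of 38 tested cell cycle genes 22 fell, 5 rose and 11 did not pass, with a median of -0.38. Of the 38, 2 had an undifferentiated level at or below 7.71 and a higher day 21 level. The replication licensing gene CDC6 fell by 1.32 ± 0.15, the cyclin gene CCNE1 by 1.11 ± 0.075, and CDC25A by 1.04 ± 0.079. The cell cycle inhibitor gene CDKN1B rose by 1.3 ± 0.12, and the proliferation marker MKI67 was at -0.22 ± 0.075, a call lost in 9 of 16 alternative settings.

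Signalling genes moved member by member. Some had an undifferentiated level at or below 7.71 and a higher day 21 level, and so entered the test through brighter embryoid body arrays. These were 5 of 34 tested WNT genes and 5 of 33 of the NODAL, BMP and TGF-beta list. So were 2 of 11 hedgehog, 2 of 20 Notch and 1 of 12 DNA methylation genes, but 0 of 24 FGF genes. Counts of increases in these 5 lists are a description. In the FGF list 14 of 24 tested genes fell, 4 rose and 6 did not pass, with a median of -0.50. Beside SPRY4 and ETV4, ETV1 (-1.6 ± 0.14), the receptor gene FGFR4 (-1.28 ± 0.094) and the ligand gene FGF2 (-0.77 ± 0.081) fell. DUSP6, a phosphatase gene that is also a feedback gene of this pathway, went the other way, from 7.75 to 11.02 and 10.96 (3.23 ± 0.19). In the hedgehog list 7 of 11 rose, 1 fell and 3 did not pass, with a median of 0.51. The co-receptor genes CDON and BOC rose from 8.4 to 11.42 and 11.39 and from 7.0 to 9.52 and 9.61. The mediator gene GLI3 (1.53 ± 0.11) and the receptor gene PTCH1 (1.18 ± 0.076) rose, whereas the ligand gene SHH (-0.098) and the target gene GLI1 (-0.26) did not pass. In the WNT list 9 of 34 rose, 6 fell and 19 did not pass, with a median of -0.03. WLS, which carries WNT ligands to the cell surface, went from 7.24 to 10.69 and 10.82, and the ligand gene WNT5A from 6.8 to 9.1 and 9.25. SFRP2, a secreted antagonist like FRZB, fell by 1.17 ± 0.083. In the NODAL, BMP and TGF-beta list 10 of 33 rose and 8 fell, with the receptor gene BMPR1B at 2.03 ± 0.15, TGFB2 at 1.43 ± 0.26, ID1 at -1.22 ± 0.086 and INHBE at -1.76 ± 0.15. In the Notch list 6 of 20 rose and 2 fell, with the target gene HES1 from 7.82 to 10.2 and 10.32, the ligand gene DLL1 at 1.15 ± 0.17 and NOTCH2 at 0.99 ± 0.071. Of 12 tested DNA methylation genes 3 fell and 1 rose, and next to DNMT3B these were UHRF1 (-0.58), DNMT1 (-0.25, lost in 4 of 16 alternative settings) and, higher, the dioxygenase gene TET2 (1.33 ± 0.19), while DNMT3A (-0.11) and TET1 (0.2) did not pass.

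Few of the changes of 2-fold or more at day 21 had reached that size at day 7. Of the 480 genes at least 2-fold higher at day 21, 53 were at least 2-fold higher on both day 7 arrays without ethanol as well, and of the 245 lower genes 27 were, where 0.996% and 0.351% of all genes passed at day 7. The comparisons of both days with undifferentiated cells share that array. The difference between the days was tested directly in limma, where 22.0% of all genes were higher and 18.5% lower at day 21 than at day 7 without ethanol, 40.6% together (4971 genes, 3077 without the day 7 untreated array and 3135 without the day 7 FA array). Of the 480 higher genes, 419 were also higher at day 21 than at day 7 and 8 were lower, and of the 245 lower genes 229 were lower and 3 higher. These counts use the day 21 arrays that chose the genes, so they describe the genes and are not independent. The 3 lower genes that were higher at day 21 than at day 7 were NQO1, RNU5D-1 and RNVU1-15, chosen after their values were seen. MEIS1 was at 6.25 and 6.06 on the day 7 untreated and FA arrays, and RARB at 6.71 and 6.69, close to their undifferentiated levels. Among genes that were at least 2-fold higher on both days, MEIS2 was at 7.89 in undifferentiated cells, 9.14 and 9.16 at day 7 and 12.21 and 12.1 at day 21. IGFBP5, of the binding proteins of insulin-like growth factors, was at 7.39, then 8.68 and 8.6, then 11.61 and 11.5. In both genes the day 7 levels lay between the others. TMEM45A, CRABP2, the peptide amidating enzyme gene PAM and the choline transporter-like gene SLC44A5 did the same, with day 21 differences of 3.95, 3.08, 2.61 and 2.42. Among genes lower on both days, CHAC1 was at 10.55, then 8.92 and 8.88, then 7.78 and 7.69, and ALDH1L2, SLC7A11, GAL, TMT1A (-2.19) and S100A11 (-2.12) also fell stepwise.

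The medians of the lists at each day are a description, since genes dim in undifferentiated cells entered through brighter arrays. The median difference from undifferentiated cells over tested HOX genes was -0.06 at day 7 and 2.42 at day 21 (1.98 over all 27 measured), over pluripotency genes -0.14 and -1.01, and over cholesterol genes 0.03 and -0.65. Amino acid response genes had medians of -0.44 and -0.59, folate and serine genes of -0.39 and -0.48, and hypoxia and glycolysis genes of 0.94 and 0.55. In the last list 11 of 31 genes were lower at day 21 than at day 7 in limma and 1 was higher, with PFKFB4 at 10.96 and 10.85 at day 7 and 10 and 10.07 at day 21. In cholesterol genes, all of which passed the filter, 18 of 24 were lower at day 21 than at day 7. Some genes crossed the undifferentiated level. DUSP6 was at 6.82 and 6.62 at day 7, below its undifferentiated level of 7.75 and far below its day 21 level. CDH1 was at 10.15 and 10.04 at day 7, above its undifferentiated level of 8.81, and at 8.05 and 7.98 at day 21.

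**Figure D5:**
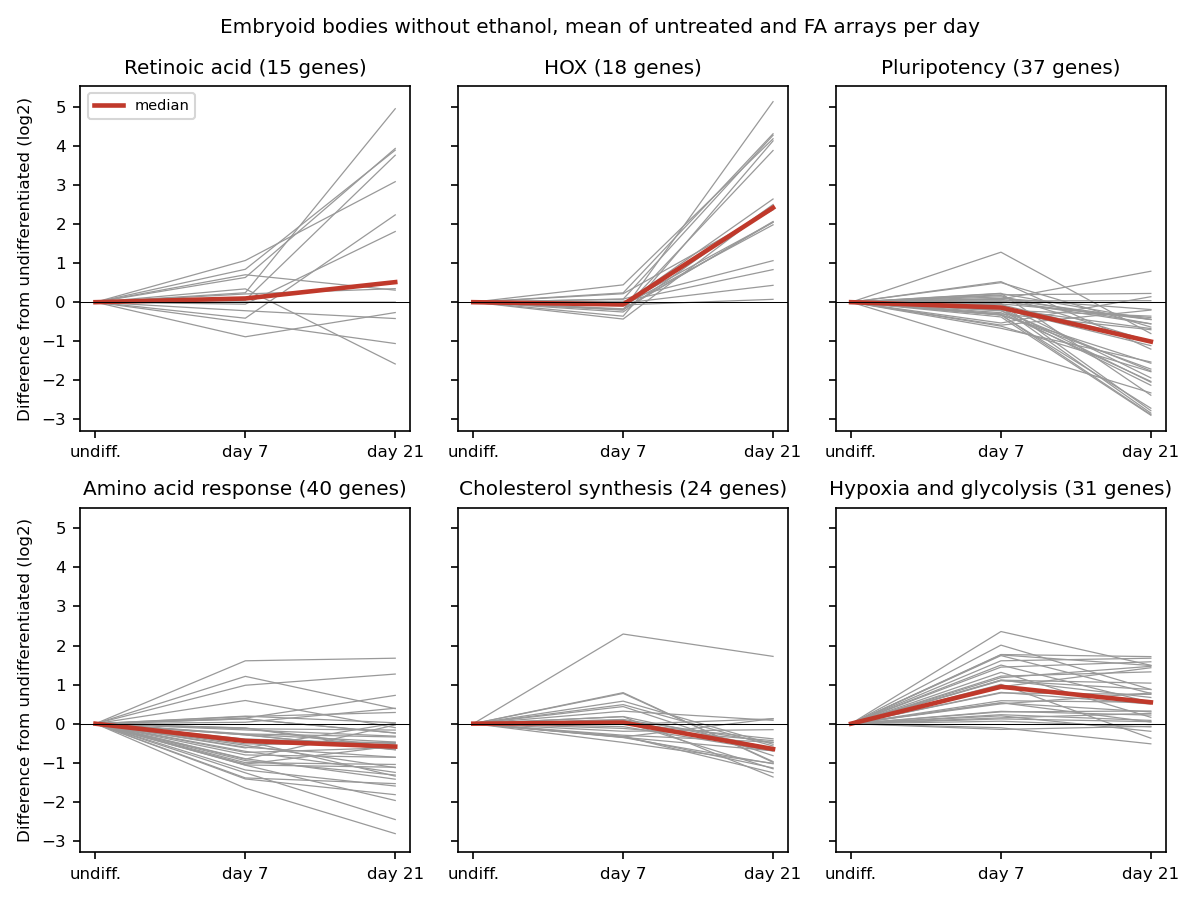
Differences from the undifferentiated array (log2) at day 7 and day 21 without ethanol, each the mean of the untreated and FA arrays, for tested genes of 6 lists, with days as evenly spaced categories. Grey lines are genes and red lines medians, and the HOX median goes from -0.06 to 2.42 while that of hypoxia and glycolysis genes goes from 0.94 to 0.55.

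The step from day 7 to day 21 was also measured on the 4 arrays with ethanol. These entered the comparison with undifferentiated cells only through the shared estimate of the spread, the filter and the choice of cluster. On the arrays with ethanol 19.1% of all genes were higher and 14.3% lower at day 21 (4093 genes, 2455 without the day 21 ethanol array and 2640 without that with ethanol and FA). All 12 named increases were higher and all 12 named decreases lower at day 21 than at day 7 under ethanol, each past limma's threshold, with steps of 2.46 to 5.38 and of -3.7 to -1.01.

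The gap between the day 21 arrays with and without FA is given as values, without a test, because each is 1 array. An effect of FA over all 4 pairs of arrays was not tested here. The median size of the gap between them was 0.0983, and 2 genes, RANBP3L and TECRL, were at least 2-fold apart. TECRL, related to enzymes of fatty acid elongation, was at 4.67 in undifferentiated cells, 8.51 untreated and 7.47 with FA, and RANBP3L at 5.61, 7.89 and 6.78. Both rose, and the FA array was the lower of the day 21 arrays. The matrix gene POSTN (7.79 and 6.93), TM4SF18 (8.63 and 7.85) and CP were also lower with FA. Among genes kept by the naming rule, the largest gaps in the other direction were smaller. They were in KCNJ9 (7.21 untreated and 7.72 with FA), the somatostatin receptor gene SSTR1 (7.61 and 8.12), TBC1D26 (7.43 and 7.93), SP7 (7.73 and 8.2) and LCN10 (7.1 and 7.54). The fit treats this gap as spread, while the difference from undifferentiated cells averages both day 21 arrays. A true effect of FA would thus enter both the spread and the difference. With FA as a term in the fit 4646 genes passed, against 5186 without it.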

How the data were processed

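RNA (300 ng per sample) was labelled and hybridised to Affymetrix whole-transcript arrays, per the labels' protocols. Per the submitters' processing notes, the authors deposited RMA values made in Affymetrix Expression Console 1.3.1. RMA corrects background, quantile-normalises probes and summarises each transcript cluster, so a shift shared by all genes is removed. The deposited values were taken as log2 from their range (2.49 to 14.3, array medians 7.67 to 7.76), as no source names the log base. A genome build was not given in the sources used here.

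Of 33297 clusters, 19460 carried 1 gene symbol (19429 matched RefSeq), 1754 several and 12083 none, and only those with 1 symbol were named. The brightest cluster stood for each of 769 genes with several. Genes were tested where the highest of the 9 values was above 7.71, the median over all clusters and arrays, leaving 12254 of 18417. Limma 3.58.1 in R 4.3.3 fitted 5 groups (undifferentiated, and each day with or without ethanol), the arrays with and without FA being the 2 arrays of a group, with 4 residual degrees of freedom and 3.72 from the prior. The lone undifferentiated array was assumed to vary like the others. The fit was tested on simulated data.

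Named genes were the 12 largest changes each way, list members with the largest changes and others needed to describe a list, the 6 largest each way at both days, and the 5 largest gaps each way between the day 21 arrays. All but the list members pass over small, antisense and noncoding RNAs, pseudogenes and genes without a RefSeq match. They also pass over open reading frames, histone genes and symbols of the LOC, KIAA, FAM and ZNF types. Members, lists and rules were chosen with earlier results of these data known. Alternatives covered the fit, the spread, centring, filters, cluster choice, fold and leaving out each embryoid body array.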

Additional observations from a re-analysis of the deposited data

Results flagged for a closer look

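Of 219 tested genes named in the text, 176 differed between day 7 and day 21 without ethanol in limma. In 12 of the genes the days lay on opposite sides of the undifferentiated array by at least 0.3 log2 units on each array. The arrays were the untreated and FA arrays of each day without ethanol. In these 12 genes both the day 21 difference and the step from day 7 to day 21 passed limma's threshold. The steps upward were HOXC5 (4.49), DUSP6 (4.27), HOXD8 (2.9), NRIP1 (2.64), NCAM1 (2.27) and GGH (1.38), in log2 units. The steps downward were MAS1 (-3.39), TRIML2 (-3.34), OLIG3 (-2.54), CDH1 (-2.08), SSTR1 (-1.43) and SREBF2 (-1.06). In 7 other genes the day 21 arrays lay on opposite sides of the undifferentiated array, a difference that was not tested. The FA array was above the untreated array by 0.47 in SP7, 0.44 in LCN10, 0.18 in HES5, 0.14 in ALDOA, 0.11 in VIM and 0.01 in CYP26C1, and the gap was -0.07 in HSP90B1. None of the 7 genes passed the test against undifferentiated cells.

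Clusters outside the named genes also changed. Of 1754 clusters with several gene symbols, 1138 had their highest value above 7.71. Of those 1138, 40 were at least 2-fold higher and 27 at least 2-fold lower on both day 21 arrays. Of 12083 clusters with no symbol, 4697 passed the same filter. Of those 4697, 114 were at least 2-fold higher and 57 at least 2-fold lower on both day 21 arrays.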

How the results depend on the processing

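The number of genes at least 2-fold apart on both day 21 arrays was 1915 at 1.5-fold (1047 higher, 868 lower) and 274 at 3-fold (198 higher, 76 lower). With only the 3 arrays of the comparison in the fit, 2995 genes passed (1454 higher, 1541 lower). Leaving out each embryoid body array in turn gave 4071 to 6062 genes (1669 to 2634 higher, 2402 to 3428 lower), 3077 to 5826 for the step between days without ethanol and 2455 to 5424 for that with ethanol. The share of calls that were higher was 43.1%, and 39.9% to 48.5% over the alternatives. Counts of list members that rose or fell moved by more than 1.5 times in 62 of 928 cases, and in 6 of 384 where the count was 5 or more. Over the alternatives 13 to 18 HOX genes rose, 25 to 30 pluripotency genes fell, 24 to 27 amino acid response genes fell and 15 to 22 hypoxia and glycolysis genes rose.

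Calls of 16 named genes were lost in at least 1 alternative, most often DNAJB9, LHX2 and MKI67, then SSTR1 in 5, DNMT1 in 4, RXRB and PBX3 in 2, and ATF4, CDH1, HOXC8, HOXD9, OLIG3, PKNOX1, POSTN, RANBP3L and TM4SF18 in 1 each. Signs turned in genes that had not passed. DDIT3 was at 0.1077 in the additive fit, and CYP26C1 at -0.01559 with arrays centred on their median, where the cause was not tested. Leaving out the day 21 untreated or the day 21 FA array turned the sign of 7 genes, whose differences over the arrays left out ranged from -0.01261 to 0.05808 for HSP90B1, -0.3836 to 0.06141 for LCN10, -0.3702 to 0.1027 for SP7, -0.01777 to 0.1216 for ALDOA, -0.004935 to 0.009969 for CYP26C1, -0.03782 to 0.1446 for HES5 and -0.02155 to 0.08569 for VIM. In each of these 7 genes the day 21 arrays lay on opposite sides of the undifferentiated array, so leaving out 1 of them must turn the sign.

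No paired analysis was possible because each condition has 1 array and the labels carry no replicate numbers. Every difference from undifferentiated cells rests on 1 array, which could not be left out. The number of arrays limits the precision, most of all for genes near or below 7.71, which are dim on these arrays.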

Other observations

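Among genes with large increases that belong to no list above, chosen after their values were seen, several code for secreted or membrane proteins known from axon guidance and the nervous system. SEMA3C, a secreted semaphorin, was at 6.26 in undifferentiated cells, 6.06 and 6.19 on the day 7 untreated and FA arrays, and 10.28 and 10.15 at day 21. PLXNA2, a semaphorin receptor gene, was at 7.32, then 7.27 and 7.39, then 10.9 and 11. In both genes day 7 lay near the undifferentiated level and both day 21 arrays lay over 3 log2 units above it. SPON1 (3.68 ± 0.14), a matrix protein gene of the floor plate, OPCML (3.87 ± 0.18), an adhesion molecule gene, CPE (3.82 ± 0.17), which processes neuropeptides, and the endothelin receptor gene EDNRB (3.53 ± 0.18) rose as well.

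The clock-linked repressor genes BHLHE40 and BHLHE41, also chosen after their values were seen, were higher at day 7 than at day 21. BHLHE40 was at 9.21 in undifferentiated cells, 11.51 and 11.43 at day 7, and 10.61 and 10.65 at day 21. BHLHE41 was at 8.14, then 10.17 and 10.09, then 9.52 and 9.44.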
